A study of Carica papaya with 55 samples.

Results

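Pollen of papaya (Carica papaya) was compared with ovules, both from mature flower buds of 15 to 20 mm (stage S5), in 3 pollen and 3 ovule libraries out of the 55 of the series. The 6 libraries were taken by their sample labels, and all 193 listed features were read in each. Pollen came from male flowers and ovules from female flowers of the cultivar AU9, with no treatment named for either. The series follows sex-linked expression in buds, pistils, pistillodes (aborted pistils of male flowers), stamens and gametophyte samples of this cultivar, in 19 groups, with alleles of CpMDAR4 as its subject. No listed feature carries that name, and CpMDAR4 was not analysed here. S5 stamens of males and S5 pistils of females, 3 libraries each, served below as organs of the same stage and bud size, and no label ties them to the flowers that gave the pollen or ovules.

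Papaya females carry paired X chromosomes, and males carry an X and a Y with a male-specific region (MSY) that does not recombine with the X. A pollen grain is the haploid male gametophyte, made by meiosis in the anther, and carries either the X or the Y, so a pollen sample from a male holds both kinds of grain. An ovule is for the most part diploid maternal tissue around a small haploid embryo sac, and neither tissue nor gametophyte in it carries a Y. Pollen is known for a specialised set of RNAs made late in its development, some of them stored for germination and growth of the pollen tube.

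The deposited tables hold counts for 97 X-located and 96 Y-located features of the sex-linked regions alone. A total per library was 27741 to 28555 counts in pollen and 73056 to 80431 counts in ovules, against 21475 to 106846 over the 55 libraries. These totals are counts over sex-linked features, not sequencing depth, so the overall depth is unknown and precision is set by the counts given for each feature. Levels are given as CPM, a feature's count as a share of its library's total over these features on the usual CPM scale, with totals adjusted by edgeR's trimmed mean method (TMM). They are relative to other sex-linked features and cannot be read as genome-wide levels. The labels do not say that replicates came from separate plants, so the spread between replicate libraries may be technical. Except in fits of fewer groups, p-values rest on that spread estimated over all 55 libraries in 19 groups, not on pollen and ovules alone. Pollen libraries 1 and 2 were the closest replicates, with a chi-square per degree of freedom of 1.46, against 6.99 to 19.7 for the other pairs within the pollen and ovule groups, and no pair agreed within sampling noise. In bulk RNA, fewer cells of a type and less RNA per cell cannot be told apart. None of the 193 names matched the 48816 genes of the reference table, so functions are not known here and no marker of pollen or ovule could be read. The labelled sex could be checked: the 27 Y features without a listed X partner took 35.6 ± 2.77% of pollen counts and 0.758 ± 0.375% of ovule counts (SD, n = 3 each). CpY19_MSY, one of them, had 428, 381 and 467 counts in the pollen libraries and 0 in each ovule library.

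Most sex-linked features differed between pollen and ovules, in both directions. Y-located features were mainly higher in pollen, and X-located features mainly lower. The sharpest differences were features with many counts in one kind of sample and none in the other. A single Y feature, CpY17_MSY, held about as many counts in pollen as all X-located features together. Of 139 features tested by edgeR's quasi-likelihood method, 109 differed after Benjamini-Hochberg adjustment (78.4%), 53 of them higher in pollen (38.1%) and 56 lower (40.3%). The other 54 listed features did not pass the filter on low counts, and 38 features had 0 counts in all 6 libraries. The 3 pollen and the 3 ovule libraries did not overlap in CPM at 113 of the 139 tested features (81.3%).

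By location, 15 X-located features rose in pollen, 35 fell and 17 did not pass, of 67 tested, with a median log2 difference of -1.15. Among 72 tested on the Y, 38 rose and 21 fell, 13 were not past the threshold and the median was 1.99, beside -0.16 over all 139 features. Of the 21 that fell, 15 were in pairs whose X and Y copies share counts and 4 in pairs that partly do. The remaining 2 had no listed X partner. Reads that fit both copies were counted at each, and ovules have no Y. The 21 thus cannot be read as Y genes lower in pollen, and they overlap in part with the 35 X falls. The share called was 74.6% on the X and 81.9% on the Y, beside 78.4% over all. Pollen and ovules share few features of even level, so the scaling sets where no difference lies. The median over all features was 0.00 with median-of-ratios scaling, -0.50 with table totals and 0.41 with TMM on X features. For X-located features, TMM on X features gave 25 higher and 32 lower (median -0.36). Table totals gave 12 higher and 41 lower there (median -1.49). Under all 6 settings (the scalings tried and the DESeq2 Wald test), 47 features passed as higher and 50 as lower in pollen. A further 7 features of near-even level passed as higher under some of these settings and as lower under others, namely CpXY3_X, PYCpXY5_X, PYCpXY22_X, CpXY11_X, CpXY20_MSY, CpXY44_MSY and CpXY45_MSY.

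**Figure D1:**
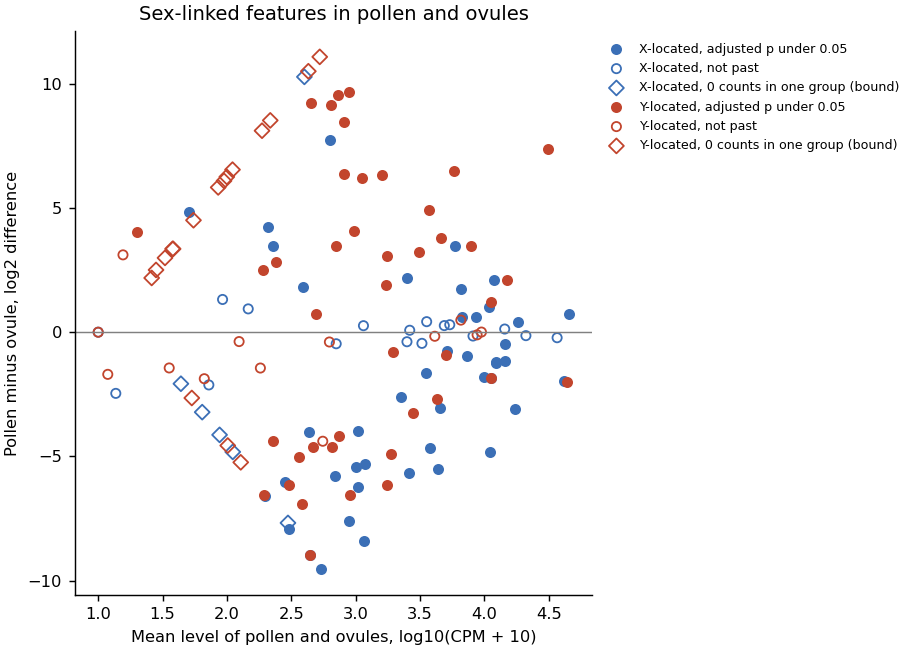
Pollen minus ovule log2 difference (vertical) against the mean level of both on a log10(CPM + 10) scale (horizontal), one point per tested feature. Filled circles passed the test, open circles did not, and diamonds have 0 counts in one group and stand at the lower bound of their difference. Y-located features lie mainly above 0 (38 higher, 21 lower) and X-located features mainly below (15 higher, 35 lower). Of the 21, 15 are copies of pairs whose X and Y copies share counts.

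CpY17_MSY (Y, 3981090 to 3985922, minus strand, 4 exons, no X partner) was the most abundant feature of pollen. It had 9272, 10064 and 8306 counts in the pollen libraries, against 244, 193 and 133 counts in the ovule libraries. Every pollen library lay far above every ovule library, and ovules, which have no Y, still held counts at it. The level was 402315 ± 67689 CPM in pollen and 2425 ± 759 CPM in ovules, a log2 difference of 7.37 (SE 0.40, adjusted p = 1.5e-20). It took 32.7 ± 2.66% of pollen counts and 0.249 ± 0.0720% of ovule counts. The 5 leading features took 47.3 ± 1.49% of counts in pollen and 32.9 ± 0.443% in ovules. With CpY17_MSY left out of the counts the order was the other way, at 25.1 ± 1.5% in pollen and 33 ± 0.423% in ovules. Features with at least 10 counts numbered 84, 82 and 81 in the pollen libraries and 102, 101 and 100 in the ovule libraries, whose totals were larger. The share at Y-located features was 67.3 ± 1.56% in pollen and 26.6 ± 0.514% in ovules, and without CpY17_MSY it was 51.4 ± 0.522% and 26.5 ± 0.466%.

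Next in pollen came both copies of CpXY12. CpXY12_X (X, 3680336 to 3687131) had 1274, 1338 and 1448 counts in pollen and 2725, 2933 and 2572 counts in ovules, and CpXY12_MSY (Y, 1110982 to 1118169) had 1193, 1156 and 1383 in pollen and 43, 50 and 50 in ovules. In CPM both copies were higher in every pollen library than in any ovule library. The X copy was at 58730.1 ± 4113 CPM in pollen and 34884 ± 1802 CPM in ovules, a log2 difference of 0.75 (SE 0.12, adjusted p = 6.7e-07), and the Y copy differed by 6.47 (SE 0.33). Per kilobase of exon, CpY17_MSY stood at 214912 CPM and CpXY12_X at 106395 CPM in pollen. In ovules the corresponding levels were 1296 CPM per kilobase for CpY17_MSY and 63197 CPM per kilobase for CpXY12_X.

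The other leading features of pollen were CpXY11_X, CpXY43_MSY, CpXY4_MSY, CpXY42_MSY and CpXY43_X. CpXY43_MSY had 696, 709 and 717 counts in pollen and 550, 582 and 559 in ovules, with tight replicates in both, and its log2 difference was 2.10 (SE 0.14, adjusted p = 5.0e-17). CpXY42_MSY stood at 26056 ± 1876 CPM in pollen and 2345 ± 516 CPM in ovules, a log2 difference of 3.47 (SE 0.26). Both belong to pairs whose copies share counts, so the chromosome behind them is uncertain. CpXY11_X was abundant in both kinds of sample, at 33972 ± 5288 CPM in pollen and 39624 ± 2663 CPM in ovules, and did not pass (log2 difference -0.22, SE 0.19, adjusted p = 0.29).

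Ovules had other leading features, most of them scarcer in pollen. The copies of CpXY47, a pair that shares counts, led in ovules, with 6837, 7516 and 6272 counts at CpXY47_MSY, against 461, 503 and 527 in pollen. CpXY47_MSY was at 21588 ± 1937 CPM in pollen and 87397 ± 6504 CPM in ovules, with a log2 difference of -2.02 (SE 0.14, adjusted p = 4.0e-17), and CpXY47_X differed by -1.98 (SE 0.13). The next were X copies. CpXY8_X had 46, 48 and 49 counts in pollen and 4192, 4507 and 4985 counts in ovules, and in CPM no pollen library came near an ovule library (log2 difference -4.81, SE 0.16, adjusted p = 1.9e-27). CpXY9_X was at 5891 ± 879.9 CPM in pollen and 50832 ± 926 CPM in ovules (log2 difference -3.11, SE 0.13). CpXY2_X, whose pair is partly shared, stood at 646 ± 250.0 CPM in pollen and 29111 ± 716 CPM in ovules, with a log2 difference of -5.50 (SE 0.19), which was -4.82 without pollen library 3, the lowest. CpXY3_X was near even, at 20007 ± 1804 CPM in pollen and 22018 ± 2377 CPM in ovules, and did not pass (log2 difference -0.14, SE 0.12, adjusted p = 0.28). Scaled on X features, CpXY3_X and CpXY11_X passed as higher in pollen, and with table totals as lower.

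Of the features with the largest differences, those higher in pollen were Y-located in 11 of 12 cases. Ovules have no Y, so a higher value in pollen at a Y feature mixes presence of the chromosome with level. The Y differences here and in the next paragraph thus restate male against female in part. CpXY4_MSY (Y, 3699169 to 3729741, plus strand) had 663, 641 and 602 counts in pollen and 0 in each ovule library. Its partner CpXY4_X (X, 2126840 to 2127133, plus strand, 1 exon) had 459, 401 and 231 counts in pollen and likewise 0 in ovules. Pollen library 3 was the lowest at both copies, and more clearly so at the X copy. Set against a floor of 3 counts over the ovule group, CpXY4_MSY was at least 2164-fold and CpXY4_X at least 1238-fold higher in pollen (adjusted p = 4.6e-09 and 8.1e-07). CpXY4_X did not pass the DESeq2 Wald test (adjusted p = 0.149). Female libraries had too few counts at CpXY4 to show whether its copies share reads, so which copy the reads came from is uncertain.

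CpY19_MSY (Y, 4002488 to 4004000), the feature that separated pollen from ovules above, was at least 1448-fold higher (adjusted p = 2.4e-26). Also without counts in ovules were 2 Y copies of pairs whose copies can be told apart. PXCpXY22_MSY had 122, 106 and 96 counts in pollen and was at least 368-fold higher, and CpXY5_MSY had 65, 76 and 102 counts and was at least 276-fold higher. Pollen library 3 was the highest for CpXY5_MSY and the lowest for PXCpXY22_MSY. PYCpXY22_MSY had 526, 504 and 516 counts in pollen and 0, 3 and 3 in ovules (log2 difference 9.68, SE 0.47, adjusted p = 4.6e-22). CpXY11_MSY had 372, 357 and 458 counts in pollen and 2, 1 and 2 in ovules (log2 difference 9.53, SE 0.43). CpY1_MSY, without an X partner, had 329, 340 and 237 counts in pollen and 2, 1 and 2 in ovules (log2 difference 9.16, SE 0.87). In summed counts scaled for the totals, pollen stood at 877 times the ovule value for PYCpXY22_MSY, 808 times for CpXY11_MSY and 617 times for CpY1_MSY. CpXY18_MSY had 206, 195 and 199 counts in pollen and 1, 0 and 2 in ovules, a ratio of 681 with a 95% exact counting interval of 232 to 3312. Smaller Y features were uneven among pollen libraries: CpY20_MSY had 31, 37 and 14 counts, PCpY1_MSY 37, 24 and 6 and PCpY9_MSY 24, 29 and 7, with 0 in ovules for each. Pollen library 3 was the lowest for all 3 of them. Pollen was higher by at least 93.1-fold at CpY20_MSY, 76.1-fold at PCpY1_MSY and 68.1-fold at PCpY9_MSY, with adjusted p = 2.6e-11, 5.6e-10 and 2.6e-11. Intervals and floors cover counting error only, since reads were not tagged by molecule.

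The features lowest in pollen against ovules were X-located in 9 of 12 cases. CpXY13_X (X, 3895165 to 3898270, plus strand, 3 exons) had 0 counts in each pollen library and 1031, 926 and 130 counts in ovules, so it was at least 204-fold lower in pollen (adjusted p = 6.2e-08). Ovule library 3 held far fewer counts than the other ovule libraries, and also the fewest at CpX15 (80, 81 and 18), CpXY33_MSY (139, 167 and 79) and CpXY33_X_v2 (112, 110 and 66). Those 3 had 0 counts in pollen and were lower there by at least 17.5-fold (CpX15), 37.7-fold (CpXY33_MSY) and 28.2-fold (CpXY33_X_v2). CpXY26_X (X, 4461056 to 4468661, 9 exons), of a partly shared pair, had 1, 0 and 0 counts in pollen and 946, 1035 and 872 in ovules. That is a ratio of 0.00119, with a 95% exact counting interval of 3.0e-05 to 0.00666. CpXY38_X and CpXY38_MSY, of a shared pair, had 1, 0 and 0 counts each in pollen, and CpXY38_X had 629, 729 and 547 in ovules (ratio 0.00179, interval 4.5e-05 to 0.00997). CpXY15_X (X, 3980708 to 4007398, 20 exons) had 1, 1 and 2 counts in pollen and 1451, 1681 and 1689 in ovules (log2 difference -8.42, SE 0.55, adjusted p = 7.1e-18). PXYCpXY1_X had 1, 2 and 1 in pollen and 795, 922 and 989 in ovules (log2 difference -7.58, SE 0.20). All 3 ovule libraries were close to each other at CpXY26_X, CpXY15_X and PXYCpXY1_X, unlike at CpXY13_X. The copies of CpXY17 were near absent from pollen, with 0, 0 and 1 counts at CpXY17_X against 291, 267 and 368 in ovules (ratio 0.00368, interval 9.3e-05 to 0.0205) and 0 counts at CpXY17_MSY, at least 23.6-fold lower. PYCpXY30_X, at 0 counts in pollen, was at least 9.3-fold lower.

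Counted over all features, 19 had at most 3 counts over the pollen group and at least 30 over the ovule group, 11 of them X-located and 8 Y-located, and 8 of the 19 had 0 counts in pollen. All of the 8 Y-located features but PXYCpXY3_MSY and PCpY10_MSY belong to shared or partly shared pairs. CpXY17, CpXY25, CpXY33, CpXY35 and CpXY38 are among the 19 with both copies, so the same reads can count at each. Ovules have no Y, so the chromosome behind their counts at the 8 is uncertain. In the other direction 10 features had at most 3 counts over ovules and at least 30 over pollen, of which 9 were Y-located, and 9 of the 10 had 0 counts in ovules. The X-located one was CpXY4_X. Pollen tables held fewer counts in total, so absence in pollen is bounded less tightly than absence in ovules.

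**Figure D2:**
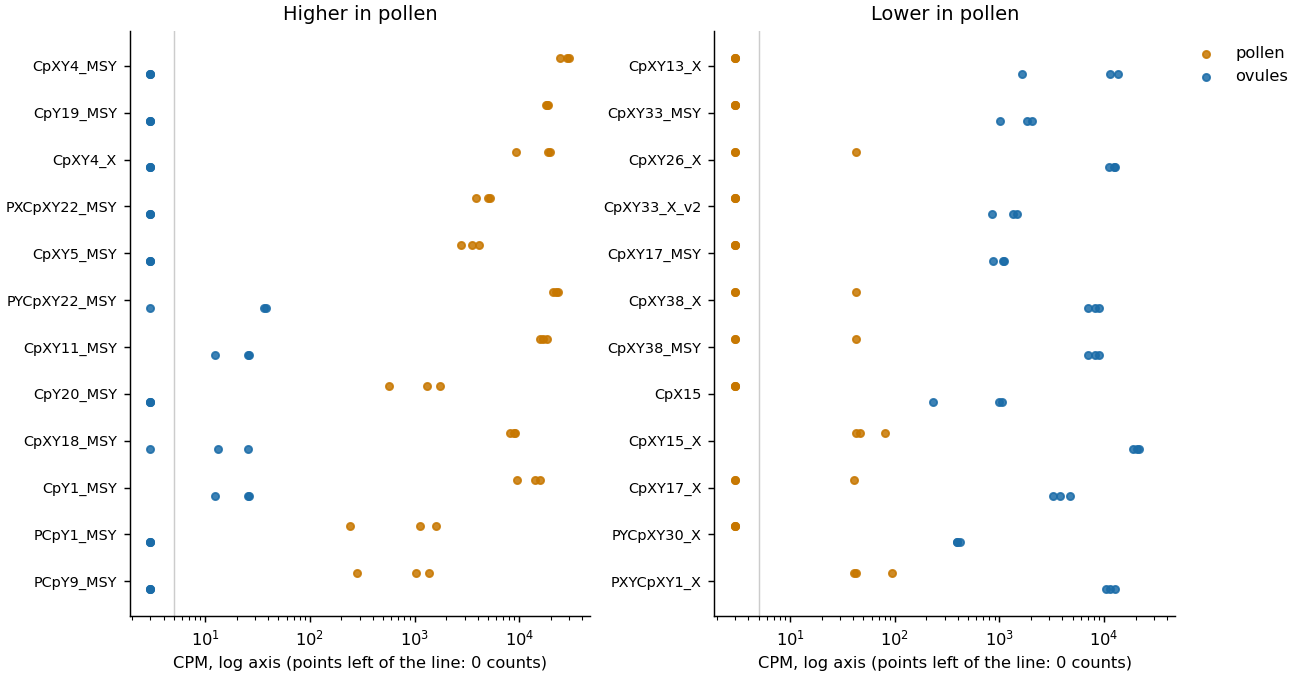
Levels in CPM (log axis) of the 12 features highest and the 12 lowest in pollen against ovules, one point per library, 3 of pollen and 3 of ovules. Points left of the grey line stand for 0 counts. No overlap between the groups was a condition for choosing these 24 features, and it held at 113 of all 139 tested features (81.3%). The lone low points are pollen library 3 at CpY20_MSY, PCpY1_MSY and PCpY9_MSY, and ovule library 3 at CpXY13_X and CpX15.

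Features without a listed partner on the other chromosome were counted apart. Of 27 such Y features 13 passed the filter on low counts: 10 rose in pollen, 2 fell and 1 did not pass (92.3% called, beside 78.4% of all 139 tested features). The 2 that fell were PXYCpXY3_MSY, with 0, 2 and 0 counts in pollen and 136, 176 and 209 in ovules, and PCpY10_MSY, with 0 in pollen and 29, 9 and 26 in ovules. PXYCpXY3_MSY is named like the copies of X and Y pairs, and was counted here because no X copy of it is listed. PCpY10_MSY was near the threshold (adjusted p = 0.044) and did not pass in 10 of 14 alternatives (adjusted p = 0.053 to 0.13). Ovules come from plants without a Y, so the chromosome behind their counts at these 2 features is uncertain. PCpY4_MSY, which did not pass (adjusted p = 0.075), had 3, 2 and 3 counts in pollen and 483, 48 and 34 in ovules, with ovule library 1 far above the others. PCpY4_MSY passed as lower with DESeq2 (-4.04, adjusted p = 0.0035) and with the pollen and ovule groups fitted alone (-4.14, adjusted p = 0.027), and was at -2.13 without ovule library 1 (adjusted p = 0.479). Of 27 X features without a partner 5 passed the filter, with 2 higher, 1 lower and 2 not past the threshold (60.0% called). PCpX1_X rose, with 87, 97 and 187 counts in pollen and 87, 88 and 102 in ovules (log2 difference 2.17, SE 0.42), and pollen library 3 was the highest. CpX26 also rose (3.46, SE 0.75), while CpX1 and PCpX2_X had log2 differences of 0.26 and 0.08. Scaled on X features these passed as higher, at 1.07 and 0.86, and PCpX2_X also did without pollen library 1 (0.67).

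For 69 pairs the tables list an X and a Y copy. A read that maps to several places was counted at each, so the copies were first sorted by how far their counts can be told apart. In the 18 female libraries that are not ovules, the Y copy took under 5% of the counts of a pair in 20 pairs (called separate), over 25% in 26 pairs (shared) and a share between in 10 pairs (partly shared). The remaining 13 pairs had under 100 such counts. In the separate pairs, 15 of 18 tested Y copies rose in pollen, 0 fell and 3 did not pass (83.3% called, beside 78.4% over all features). By edgeR at an unadjusted p under 0.05 and by DESeq2, 0 fell as well. These pairs were chosen for few female counts at the Y copy. A fall from ovules to pollen was thus hardly possible, and its absence says nothing about pollen. A rise needed little more than counts at the Y copy in pollen, so the 15 rises show that these copies had counts there. Of the 20 X copies of these pairs 2 rose, 12 fell and 6 did not pass (70.0% called), with a median log2 difference of -1.21. Scaled on X features 6 X copies rose and 11 fell, with a median of -0.42.

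Pollen of a male has an X and a Y copy to draw on, and ovules have X copies alone, so the sum of both copies was also compared. The sum was higher in pollen for 7 of the 20 separate pairs, lower for 8 and not past the threshold for 5, with a median log2 difference of -0.06. In that table, 95 of 121 features and summed pairs differed in all (78.5%), with 43 higher (35.5%) and 52 lower (43%). The count of higher pairs was 7 to 11 and that of lower pairs 8 to 10 across scalings.

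Among the sums higher in pollen, CpXY12 had 2467, 2494 and 2831 counts in pollen and 2768, 2983 and 2622 in ovules. Its level was 112576 ± 6054 CPM in pollen and 35490.2 ± 1775 CPM in ovules, above every ovule library in each pollen library (log2 difference 1.67, SE 0.12, adjusted p = 7.1e-17). CpXY5 summed to 19037 ± 1744 CPM in pollen and 7663 ± 1558 CPM in ovules (log2 difference 1.31, SE 0.16), and its X copy alone was also higher (log2 difference 1.02, SE 0.17). PYCpXY22 summed to 34588 ± 3476 CPM in pollen and 16996 ± 3330.1 CPM in ovules (log2 difference 1.02, SE 0.15) while its X copy alone had a log2 difference of -0.48 (SE 0.15) and did not pass in 10 of 16 alternatives, with a turned sign when scaled on X features (0.32) or without pollen library 3 (0.06). CpXY12 and CpXY5 were thus higher in pollen at both copies, and PYCpXY22 at the Y copy. At the Y copies this follows in part from how separate pairs were chosen. PXCpXY22 differed by 0.98 (SE 0.19). The sums of CpXY14 and CpXY3 were also higher, at 0.85 (SE 0.16, adjusted p = 6.9e-06) and 0.62 (SE 0.11). PYCpXY3 had few counts, 13, 12 and 8 in pollen and 4, 6 and 13 in ovules, with a log2 difference of 2.28 (SE 0.87, adjusted p = 0.016). It did not pass without ovule library 1 (1.99, adjusted p = 0.0597), and was at 2.89 without pollen library 3 and at 2.88 without ovule library 3.

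Among the sums lower in pollen, PXYCpXY1 had 3, 3 and 2 counts in pollen and 795, 922 and 989 in ovules (log2 difference -6.61, SE 0.17, adjusted p = 4.3e-32), and -6.01 without pollen library 3. CpXY6 had 13, 7 and 12 in pollen and 1377, 1438 and 1535 in ovules (log2 difference -5.32, SE 0.22). CpXY8 had 57, 61 and 54 in pollen and 4197, 4510 and 4994 in ovules (log2 difference -4.54, SE 0.16). These 3 pairs were scarce in every pollen library at both copies, while each ovule library held far more counts. PYCpXY30 and PYCpXY31 had no counts in pollen at either copy and were at least 9.49-fold and 4.21-fold lower. CpXY9, PYCpXY7 and CpXY29 were lower as well, with log2 differences of -2.64, -3.06 and -1.04. The sums of PYCpXY5 (-0.13), CpXY7 (-0.32), PXCpXY14 (0.25) and CpXY11 (0.37, SE 0.18, adjusted p = 0.057) did not pass, and CpXY31 had no counts in either group. The sums of CpXY11 and PXCpXY14 passed as higher in 12 of 18 alternatives each, among them median-of-ratios scaling, table totals without CpY17_MSY, scaling on X features, both other count filters and the fits without pollen library 1, pollen library 3 or ovule library 2. The sum of PYCpXY5 ran from -0.47 with table totals to 0.66 when scaled on X features and that of CpXY7 from -0.66 to 0.46, past the threshold at both ends.

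**Figure D3:**
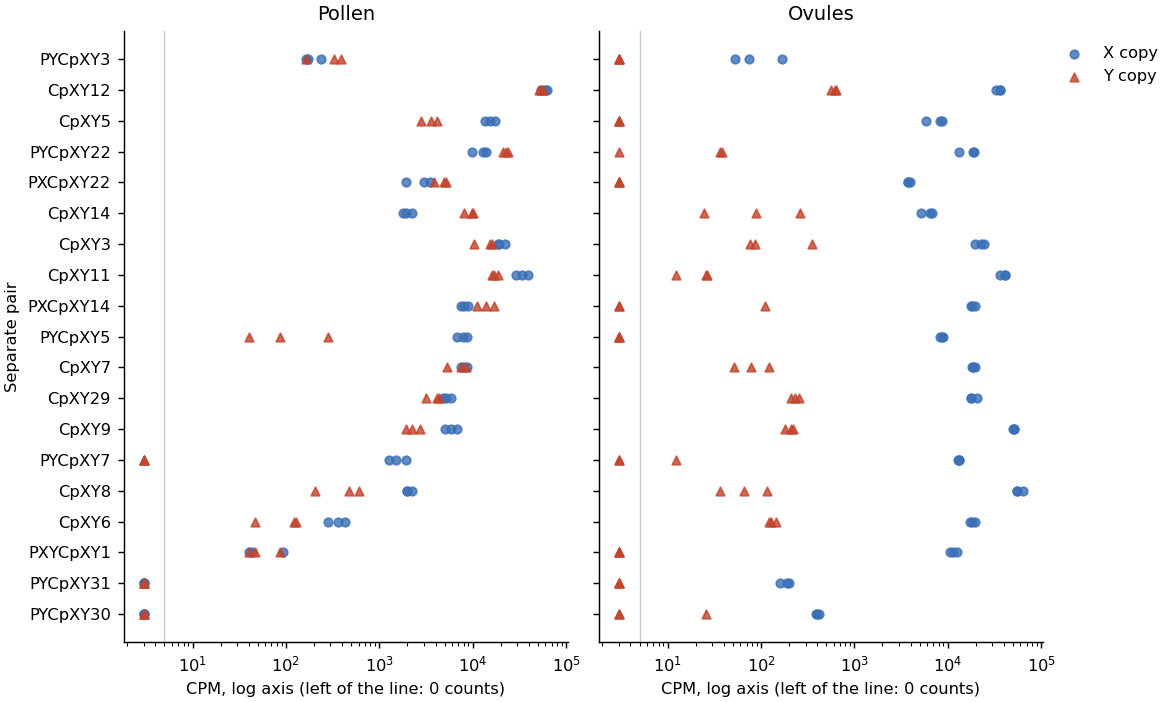
CPM (log axis) of the X copy (circles) and the Y copy (triangles) of the separate pairs with counts, in pollen (left) and in ovules (right), one point per library and copy, 3 libraries each. Pairs run from the highest to the lowest pollen minus ovule difference of their sum, and points left of the grey line stand for 0 counts. In pollen the copies lie close together at pairs such as CpXY12 and far apart at PYCpXY7 and PYCpXY5. In ovules the Y copies of every pair lie below its X copy or at 0 counts, which follows from how separate pairs were chosen.

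Within pollen, the Y copies took 46.4, 45.1 and 44.5% of the counts of the separate pairs in the 3 libraries, a mean of 45.3 ± 0.942%, beside 41.6 ± 1.2% in S5 stamens. Pairs differed widely around this pooled share, in which each pair weighs by its counts. CpXY12 alone held 4060 of its 12762 X counts and 3732 of its 10579 Y counts in pollen. Of 14 pairs with at least 20 counts in every pollen library, 4 had a 95% exact binomial interval above 50% and 10 had one below 50%. Of the same 14, CpXY12, CpXY14, PYCpXY22 and PXCpXY22 had a higher Y share in pollen than in stamens. PYCpXY7 had 0 Y counts in both, and the others had a lower share in pollen. CpXY14 was the highest, with 138 counts at the X copy and 643 at the Y copy over pollen, a Y share of 82.3% (interval 79.5 to 84.9%). Over libraries it averaged 82.3 ± 1.97% in pollen and 28.8 ± 4.74% in S5 stamens (SD, n = 3 each), a difference that was not tested. PYCpXY22 (64.8%), PXCpXY14 (63.1%) and PXCpXY22 (62.9%) were the other pairs above 50%. At the low end, PYCpXY7 had 0 Y counts of 108 (interval up to 3.36%, and 2.78% for the floor of 3 counts), and PYCpXY5 had 9 Y counts beside 532 at the X copy (1.66%). CpXY8 stood at 16.9% in pollen, against 46.7 ± 1.01% in S5 stamens, and CpXY5 at 18.5%, against 44.1 ± 4.79%. CpXY9 (27.9%), CpXY11 (33.5%), CpXY3 (41.1%), CpXY29 (42.5%), CpXY7 (46.4%) and CpXY12 (47.9%) lay between. The intervals cover counting error within these libraries, not the spread between them. CpXY7, for instance, averaged 46.3 ± 5.66% over the pollen libraries, with pollen library 3 the lowest at 39.8%. Shares were not adjusted for exon length, which can differ between copies. The X and Y copies have 1101 and 596 exon bases at CpXY5, and 990 and 479 at PYCpXY7. An even share of counts thus does not mark equal levels per exon base at these pairs.

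Where the copies share counts, no chromosome can be assigned to them. In shared pairs 6 X copies rose, 15 fell and 6 did not pass, of 27, with a median log2 difference of -1.98. Their called share, 77.8%, was near the 78.4% over all tested features. Of their 26 Y copies 4 rose, 15 fell and 7 did not pass (73.1% called), with a median of -1.94. CpXY43_X and CpXY43_MSY, for instance, both differed by 2.10, and CpXY36_X and CpXY36_MSY by -1.84 and -1.83. Partly shared pairs had 2 X copies higher, 6 lower and 2 not past the threshold (median -0.85), and 6 Y copies higher and 4 lower (median 1.3). In the pairs too sparse to class, 5 X and 5 Y copies were tested, of which 3 in each rose, 1 X copy fell, and the rest did not pass.

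Male and female organs of the same stage give a second contrast of this kind, which asks whether pollen and ovules differ as stamens and pistils do. The male minus female difference was not the same in both: for 81 of 139 features it changed by the test of the difference itself (58.3%). It was higher for 22 (15.8%) and lower for 59 (42.4%) in pollen and ovules than in stamens and pistils. With table totals without CpY17_MSY the split was 36 higher and 49 lower. Under all scalings and the DESeq2 test, 21 features passed as higher and 48 as lower. In S5 stamens against S5 pistils alone, 60 features were higher and 49 lower (78.4%). X-located features made up 13 of the 22 higher and 32 of the 59 lower, and Y-located features 9 and 27.

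**Figure D4:**
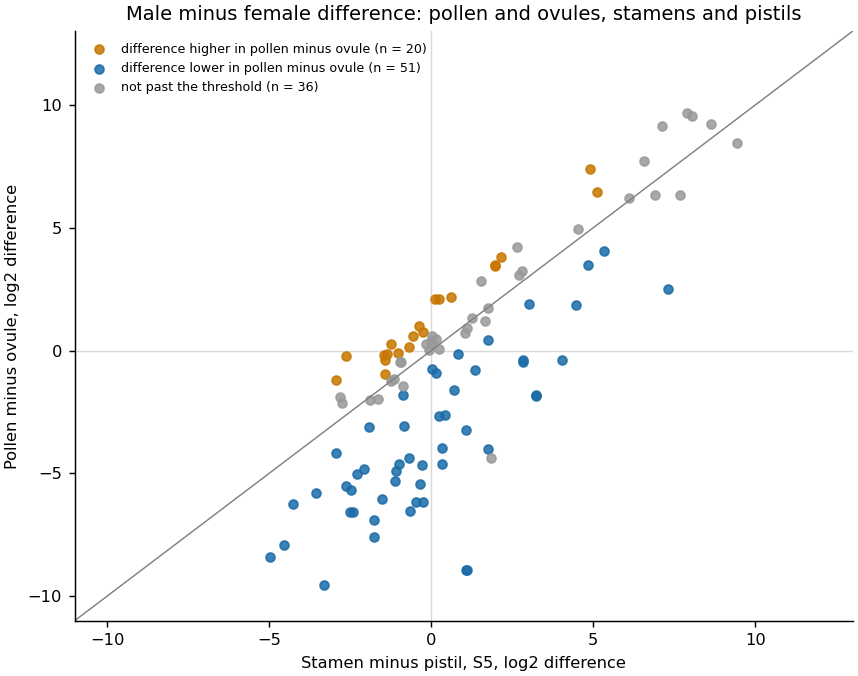
Pollen minus ovule log2 difference (vertical) against the stamen minus pistil log2 difference at S5 (horizontal), one point for each of the 107 tested features with counts in all 4 groups. The diagonal marks equal differences. Of these features, 20 are higher (orange) and 51 lower (blue) in pollen minus ovule by the test of the difference, and 36 (grey) did not pass.

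CpXY13 was the first of those whose male minus female difference was lower in pollen and ovules. CpXY13_X had 0 counts in each pollen library and 1031, 926 and 130 in ovules, while it had 2702, 2743 and 3447 counts in stamens and 6, 0 and 0 in pistils. CpXY13_MSY (Y, 907975 to 908290, 1 exon) had 1, 0 and 0 in pollen and 4, 5 and 1 in ovules, against 2152, 1947 and 2194 in stamens and 0 in pistils. The X copy was thus absent from pollen and present in ovules, and abundant in stamens while near absent from pistils. CpXY36_X (X, 4948529 to 4951174, 6 exons) had 114, 131 and 164 counts in pollen and 1778, 1778 and 1406 in ovules, against 19604, 14892 and 21821 in stamens and 1719, 3045 and 1945 in pistils. It was lower in pollen than in ovules (log2 difference -1.84, SE 0.15, adjusted p = 7.0e-15) and higher in stamens than in pistils (3.25, SE 0.15), and these differences themselves differed by -5.08 (SE 0.21). CpXY38_X, near absent from pollen, was at 11087 ± 1028 CPM in stamens and 5214 ± 136 CPM in pistils, a log2 difference of 1.09 (SE 0.14).

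In all, 9 features were lower in pollen than in ovules, higher in stamens than in pistils, and past the test of the difference. That count was 7 to 15 across the scalings and the DESeq2 test. CpXY13_X, CpXY16_MSY and both copies of CpXY36 and CpXY38 were among them under all of these settings. The others were CpXY14_X, CpXY50_X and CpXY2_MSY. The opposite pattern held for CpXY5_X and PXCpXY6_X_v3, with 2 to 7 features across these settings and 0 under all of them.

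For other features the male minus female difference was higher in pollen and ovules than in the organs. CpXY43_X was even between organs, at 7411 ± 168 CPM in stamens and 6774 ± 924 CPM in pistils (log2 difference 0.13, SE 0.19, adjusted p = 0.55), and at 24745 ± 2428 CPM in pollen and 5752 ± 169 CPM in ovules. CpXY11_X was near even between pollen and ovules and lower in stamens, at 6086 ± 2361 CPM, than in pistils, at 37609 ± 1752 CPM (log2 difference -2.63, SE 0.20). The male minus female difference of CpXY11_X was higher in pollen and ovules by 2.40 (SE 0.27, adjusted p = 3.6e-10). CpY17_MSY was higher in males on both sides, by 7.37 in pollen over ovules and 4.91 in stamens over pistils, and by 2.47 more in pollen (SE 0.44, adjusted p = 5.0e-06). Stamen library 3 stood apart at this feature, with 8739, 11895 and 2265 counts in the 3 stamen libraries. PCpY1_MSY had 2, 0 and 4 counts in stamens and 0, 3 and 2 in pistils, beside 37, 24 and 6 in pollen and 0 in ovules.

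**Figure D5:**
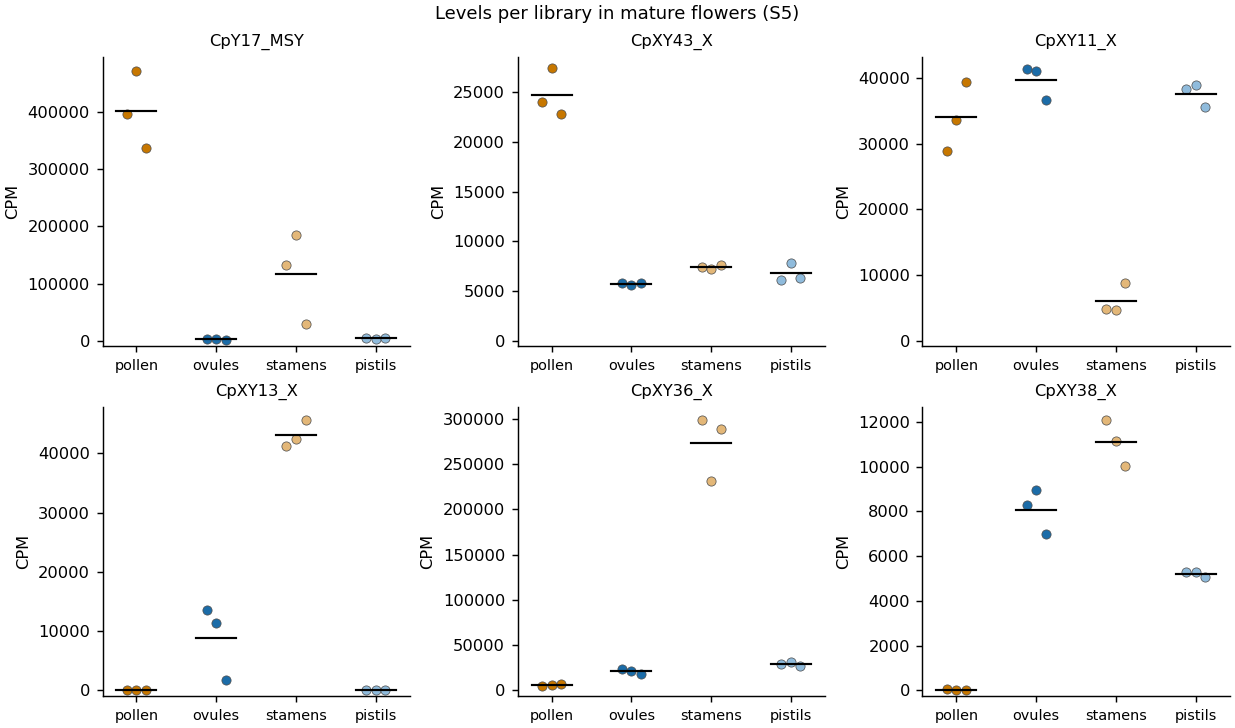
CPM (linear axes that start at 0, one scale per panel) of 6 features in pollen, ovules, S5 stamens and S5 pistils, one point per library (3 each) with the group mean as a bar. CpY17_MSY and CpXY43_X are highest in pollen and CpXY11_X is low in stamens alone. CpXY13_X, CpXY36_X and CpXY38_X are high in stamens and lower in pollen than in ovules.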

How the data were processed

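Pollen and ovule libraries were grouped by their sample titles. The deposited values are fragment counts over the exons of each feature, which the authors made, per the file headers, with featureCounts 2.0.0 on read pairs. Reads mapping to more than 1 place were counted at each place, and no strand setting was used. The submitters' processing notes also name FastQC 0.11.5, Trimmomatic 0.36, SAMtools 1.3.1, HISAT2 2.0.5 and featureCounts 1.5.2. A genome build was not given in the sources used here, and coordinates are those of the deposited tables.

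Counts were scaled by TMM, filtered by group with filterByExpr (minimum count 10) and modelled with edgeR 4.0.16 (R 4.3.3) by quasi-likelihood over all 55 libraries in 19 groups (robust, prior count 0.125). The contrasts were pollen minus ovule, stamen minus pistil at S5, and the difference of those differences. Adjusted p-values are two-sided, by Benjamini-Hochberg over all features tested, with a threshold of 0.05. For summed pairs, library factors came from the unsummed table, a choice made after the data were seen. Features at 0 in a group are given by a bound against 3 counts over that group, and ratios with 1 to 3 counts by a 95% exact counting interval.

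Named features were the 12 largest differences per direction among those past the threshold, with a mean of at least 10 counts in the higher group and no overlap of libraries, the 8 highest levels in each kind of sample, 6 per direction for the contrast with organs and 5 per direction for summed pairs. Features without a partner, CpXY36, features with opposite directions in the 2 contrasts, the other sums and the pairs named for their Y shares were picked with their values in view. Members and lists were chosen with earlier results of these data known. Replicate numbers did not pair libraries: deviations from the group means correlated at 0.05, -0.02 and -0.11 between same-numbered pollen and ovule libraries, across features.

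Alternatives were other scalings and count filters, the DESeq2 1.42.0 Wald test, the compared groups fitted alone, replicate number as a block, other limits for classing pairs, and each library left out in turn. The fit was tested on simulated data. Python 3.11.15 with pandas 2.3.3, matplotlib 3.10.9 and SciPy 1.17.1 made the tables and figures.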

Additional observations from a re-analysis of the deposited data

Results flagged for a closer look

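The male minus female difference was higher or lower in pollen and ovules than in S5 stamens and pistils for 81 of 139 features, by edgeR's quasi-likelihood test of the difference itself, adjusted by Benjamini-Hochberg. Of the features named for their difference between pollen and ovules or their level there, 24 of 37 were among them, beside 58.3% of all 139 features. Many of the 37 were picked by the pollen minus ovule difference, which is part of this contrast, so their count is no separate evidence. Values are differences of log2 differences, pollen minus ovule less stamen minus pistil. Higher and lower refer below to this difference, not to a level. Where 1 of the 4 groups had 0 counts, the value depends on the prior count and is no measure of size.

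Higher in pollen and ovules were CpXY11_X by 2.40 (SE 0.27), CpXY43_X by 1.98 (SE 0.28), CpXY43_MSY by 1.86 (SE 0.20), CpXY42_MSY by 1.51 (SE 0.33), CpXY12_MSY by 1.36 (SE 0.40), CpXY3_X by 1.21 (SE 0.17) and CpXY12_X by 1.01 (SE 0.18). CpY17_MSY was higher by 2.47 (SE 0.44), with stamen library 3 apart from the other stamen libraries. With 0 counts in ovules, PCpY1_MSY had a value of 8.61 and CpY19_MSY of 3.68. CpY19_MSY (adjusted p = 0.049) did not pass when scaled on X features or without any count filter (adjusted p = 0.0503 and 0.0834), and lost its call without ovule library 1, 2 or 3, or pistil library 1 or 3 (adjusted p = 0.086 to 0.16).

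Lower in pollen and ovules were CpXY8_X at -2.74 (SE 0.20), CpXY2_X at -2.88 (SE 0.23), CpXY9_X at -1.20 (SE 0.18), PXYCpXY1_X at -5.83 (SE 0.25) and CpXY15_X at -3.44 (SE 0.77), the last at -2.56 without stamen library 3. Values that rest on 1 count over pollen are no firm sizes either. CpXY38_X and CpXY38_MSY were at -10.04 each, and without pollen library 1, which holds that count, at -13.56 each. CpXY26_X was at -6.23, and at -9.72 without pollen library 1. CpXY17_X was at -3.38, and at -6.89 without pollen library 3, which holds its count. With 0 counts in a group, CpXY13_X was at -22.76, CpXY13_MSY at -15.43, PCpY10_MSY at -8.07, CpXY33_MSY at -7.61, CpX15 at -7.28, CpXY17_MSY at -6.52 and CpXY33_X_v2 at -6.06. PCpY10_MSY (adjusted p = 0.044) lost its call with median-of-ratios scaling, with table totals, with table totals without CpY17_MSY and without any count filter (adjusted p = 0.053 to 0.079), and when single libraries of all 4 groups were left out (adjusted p = 0.052 to 0.10). CpX15 did not pass when the 4 groups were fitted alone (adjusted p = 0.062).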

How the results depend on the processing

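The count of features that differed between pollen and ovules, 109, was 98 to 116 under the alternatives run. It was 107 to 111 with 1 library left out in turn (52 to 57 higher, 52 to 56 lower). Under all scalings and the DESeq2 test, 97 passed in 1 direction. With replicate number as a block 53 features were higher and 56 lower, as without it, and 46 and 52 with the block in a fit of the pollen and ovule groups alone, which tested fewer features. For the contrast with organs the count, 81, was 79 to 84 with 1 library left out (22 to 25 higher, 57 to 60 lower), and 23 higher and 60 lower with the block. Table totals without CpY17_MSY gave 36 features higher in that contrast, against 22, and the Y-located share in pollen was 51.4% without CpY17_MSY. For summed pairs the count, 95, was 92 to 100 with 1 library left out (41 to 49 higher, 49 to 52 lower), 43 higher and 52 lower with the block, 104 with TMM on the summed table and 96 with separate pairs limited to under 2%. With 1 library left out, the Y-located share was 66.7 to 68.2% in pollen and 26.4 to 26.9% in ovules, and the Y share of separate pairs in pollen 44.8 to 45.8%. CpXY11_X and CpXY3_X, at -0.22 and -0.14 and not past the threshold, turned sign: to 0.16 and 0.24 with median-of-ratios scaling, 0.018 and 0.096 with table totals without CpY17_MSY, 0.57 and 0.65 on X features, 0.059 and 0.14 with a stricter filter, 0.16 and 0.24 with DESeq2, 0.019 and 0.099 with the groups alone, and 0.0083 and 0.10 with the replicate block on the groups alone. CpXY3_X was at 0.031 without a count filter. With table totals they passed as lower, at -0.55 and -0.47. With 1 library left out CpXY11_X ran from -0.28 to 0.26 and CpXY3_X from -0.22 to 0.30. Among the features named for their pollen and ovule difference or level, the others kept direction and call, except CpXY4_X with DESeq2 (adjusted p = 0.149). PCpY10_MSY, named for the contrast with organs, and PYCpXY22_X lost their pollen and ovule calls in 10 of 14 and 10 of 16 alternatives. Limits of 2% and 40% left 19 separate, 17 partly shared and 20 shared pairs. The cause of these changes was not tested. Scaling rests on sex-linked features alone, and the median over all features moved between -0.50 and 0.41 with it. Pollen totals of 27741 to 28555 counts limit what can be said of features scarce in pollen.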
